A study of Gallus gallus with 9 samples.

Results

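The translation initiation factors described here are the 39 genes, of 24356 listed, whose symbol in the deposited result tables begins with EIF1, EIF2S, EIF2B, EIF3, EIF4, EIF5 or EIF6. They were matched by gene identifier to the count tables of 9 libraries. The libraries held poly(A) RNA of chicken (Gallus gallus) primordial germ cells, the embryonic precursors of eggs and sperm. There were 3 groups of 3 libraries each, labelled LIN28A knockout, LIN28B knockout and wild type with a control vector. The series asked whether LIN28 proteins, RNA-binding regulators of microRNA maturation and of translation, are needed to maintain these cells. The labels used here do not give the kind of edit, whether a line was 1 clone, or whether libraries with the same label are independent cultures. The p-values therefore reflect library-to-library spread alone, which may be technical.

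Initiation factors place the ribosome on the start codon of an mRNA. eIF2 carries the initiator tRNA to the small ribosomal subunit in a GTP-bound form, and eIF2B recharges eIF2 with GTP, a step that is blocked in the integrated stress response. eIF3 is the large scaffold on the small subunit. eIF4E binds the mRNA cap, eIF4G bridges the cap to the ribosome, and the helicase eIF4A with eIF4B and eIF4H unwinds the leader, while eIF1 and eIF1A hold the scanning ribosome open until a start codon is found. eIF5, eIF5B and eIF6 act in GTP hydrolysis and in joining of the large subunit. Oocytes and germ cells are known for control of translation through proteins that bind eIF4E.

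Each library held 27.7 to 32.2 M counts. LIN28A transcripts stood at 117, 109 and 17.7 CPM (depth-scaled counts, after TMM normalization) in LIN28A knockout, against 160, 144 and 244 CPM in control. These were 72.8%, 76.2% and 7.28% of the same-numbered control library. LIN28A was at 173, 179 and 242 CPM where the label was LIN28B knockout. LIN28B stood at 40.3, 41.8 and 38.0 CPM in LIN28A knockout, below every other library, at 77.1%, 92.1% and 61.4% of the same-numbered control library. It was 55.0, 59.6 and 50.3 CPM in the libraries labelled LIN28B knockout, against 52.3, 45.4 and 61.9 CPM in control. Replicates 1 and 2 lay above the same-numbered control library and replicate 3 lay below it. The transcript was thus not consistently lower there, and the name stands for the label throughout. Between replicates 1 and 2 the 39 factors differed by a root mean square of 0.0777 log2 units in LIN28A knockout, 0.0943 in libraries labelled LIN28B knockout and 0.0703 in control. Replicate 3 was farther from replicates 1 and 2 in every group, at 0.378 and 0.363 log2 units in LIN28A knockout, 0.334 and 0.383 in the LIN28B-labelled libraries, and 0.231 and 0.245 in control. Markers of germ cells (10 of 11 found) summed to 3730 to 4160 CPM in LIN28A knockout, 4470 to 4630 CPM in libraries labelled LIN28B knockout and 4490 to 4600 CPM in control. DAZL stood at 1341, 1393 and 1506 CPM in LIN28A knockout, against 1804, 1903 and 2102 CPM in control. CXCR4 was also below every control library there, while PRDM14 and TDRD15 were above every control library. DDX4 was above control in replicates 1 and 2 and below it in replicate 3, and the other markers found overlapped control. Markers of fibroblasts (8 of 8 found) summed to 1360, 1320 and 450 CPM in LIN28A knockout, 457, 404 and 975 CPM in libraries labelled LIN28B knockout, and 544, 536 and 948 CPM in control. Most of that sum was COL1A1, COL1A2 and COL3A1, and LUM, DCN, POSTN, TWIST1 and PDGFRA stood at 0 to 6.62 CPM. The part of these marker differences in the values below was not tested. In bulk RNA, fewer cells of a type and less RNA per cell cannot be told apart.

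Every one of the 39 factors was well detected, with at least 976 counts in each library, and all passed the filter on low counts. None was called in any of the 3 comparisons by edgeR's two-sided quasi-likelihood test at an adjusted p under 0.05, without the replicate number as a block. None was called by DESeq2 either, which called 2.12% of genes in LIN28A knockout against control, 0.751% in libraries labelled LIN28B knockout against control and 6.05% between the knockouts. In LIN28A knockout against control 1 of 15475 genes was called (0.00646%), or 13 (0.0840%) with the replicate number as a block. In the libraries labelled LIN28B knockout against control 2 were called (0.0129%), or 24 (0.155%) with the block. LIN28A knockout against the libraries labelled LIN28B knockout gave 80 (0.517%), or 890 (5.75%) with the block, although the numbers paired these groups only weakly. That block fit called 3 factors, EIF2S2, EIF3H and EIF3J, all higher in LIN28A knockout, where 3.55% of genes were called higher. At an unadjusted p under 0.05 there were 5 factors lower and 0 higher in LIN28A knockout against control (12.8% of the factors, against 10.6% of all genes tested, 5.13% lower and 5.49% higher). The libraries labelled LIN28B knockout gave 2 lower and 0 higher (5.13%, against 8.87%, 4.42% lower and 4.45% higher). LIN28A knockout against the libraries labelled LIN28B knockout gave 3 higher and 5 lower (20.5%, against 18.0%, 10% higher and 7.96% lower). Among abundant genes, those with an average log2 CPM of 5 or more, these shares were 12%, 9.21% and 19.4%. Both knockouts are set against the same control libraries.

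The fitted differences were small and mostly below 0 in LIN28A knockout. In LIN28A knockout against control 28 of 39 factors lay below 0. Their median log2 fold change was −0.13, within a range of −0.41 to 0.50, where all genes tested had a median of 0.02 and 47.3% below 0. All 39 factors are abundant, at 5.41 or more in average log2 CPM, and among the 6349 abundant genes the median was −0.0152, with 53.0% below 0. Leaving out 1 library at a time changed the sign of 14 of the 39 values, and without LIN28A knockout replicate 3 the count below 0 was 33, with a median of −0.15. The share of all genes or of abundant genes below 0 was not counted for the fit without that library. Of the 39 factors 27 in libraries labelled LIN28B knockout lay below 0 (24 with upper-quartile scaling), with a median of −0.07 and a range of −0.43 to 0.29. Of all genes 50.2% lay below 0 there, and the abundant genes had a median of −0.039, with 57.8% below 0. Between the knockouts the median was −0.08, with 24 of 39 below 0 (49.6% of all genes and 49.3% of abundant genes). The 3 LIN28A knockout libraries lay entirely below the 3 control libraries for 12 factors (30.8% of the factors, against 9.78% of all genes and 14.2% of abundant genes) and entirely above for 1 (8.21% and 7.69%). The libraries labelled LIN28B knockout lay entirely below control for 7 factors (17.9%, against 11.4% and 13.5%) and entirely above for 3 (7.69%, against 11.6% and 10.7%). For LIN28A knockout against the libraries labelled LIN28B knockout these counts were 8 below (20.5%, against 12.6% and 15.2%) and 2 above (5.13%, against 11.7% and 11.4%).

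**Figure D1:**
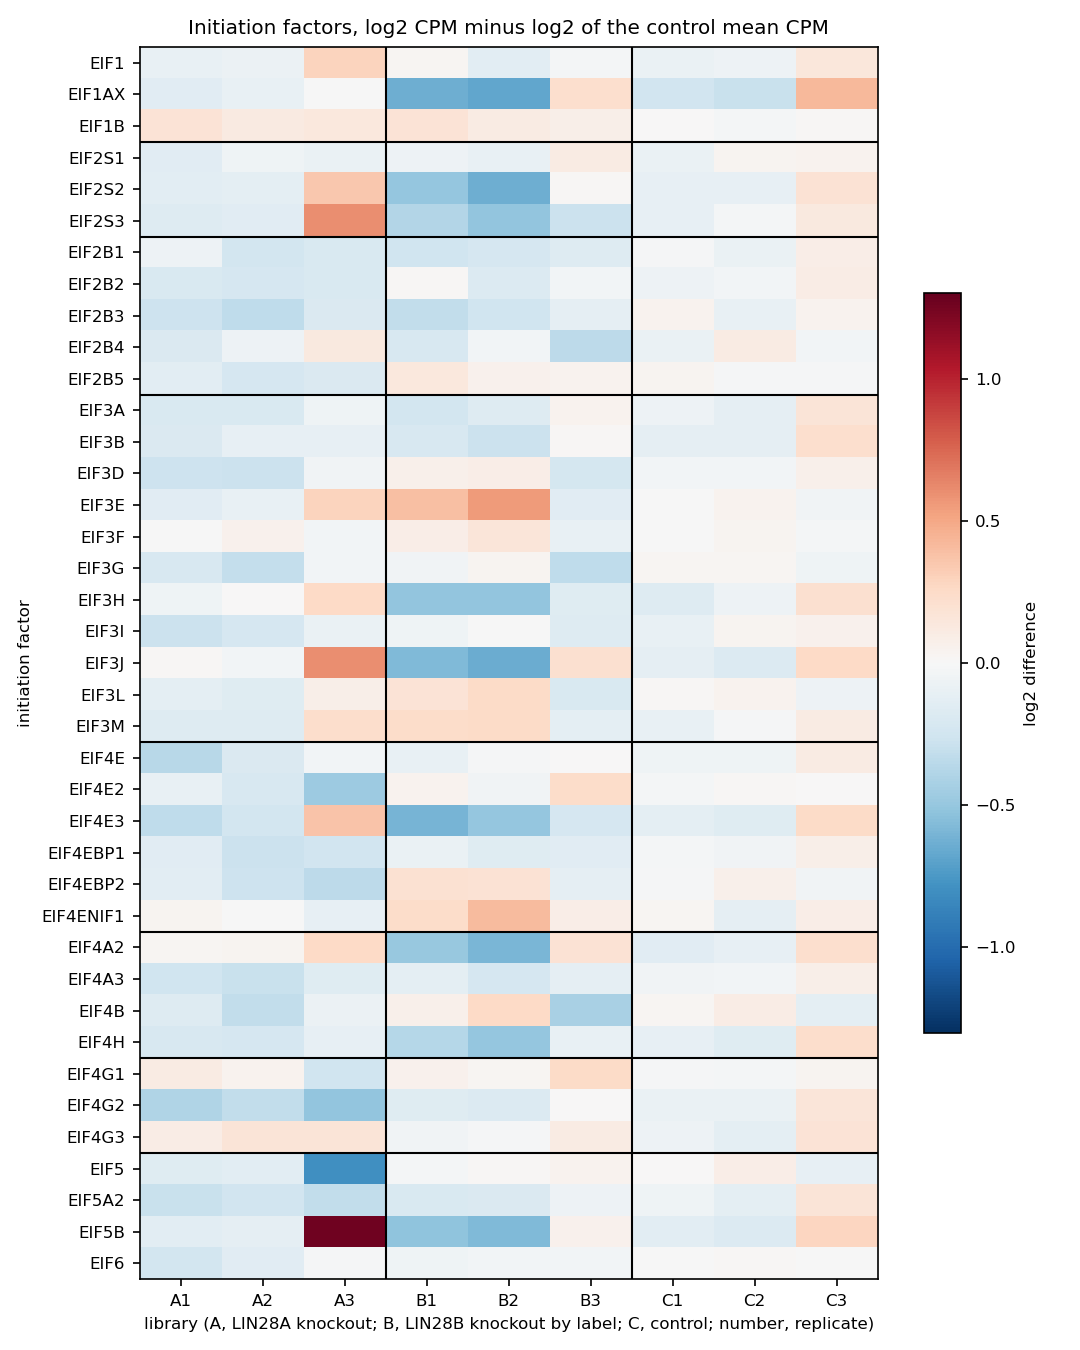
Each row is an initiation factor, grouped by complex, and each column a library, with the colour giving log2 CPM minus log2 of the control mean. Blue fills most of the LIN28A knockout columns in the eIF2B, cap-binding and eIF4G2 rows. Replicate 3 of LIN28A knockout differs from replicates 1 and 2 most plainly for EIF5B, and also for EIF2S3 and EIF5.

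**Figure D2:**
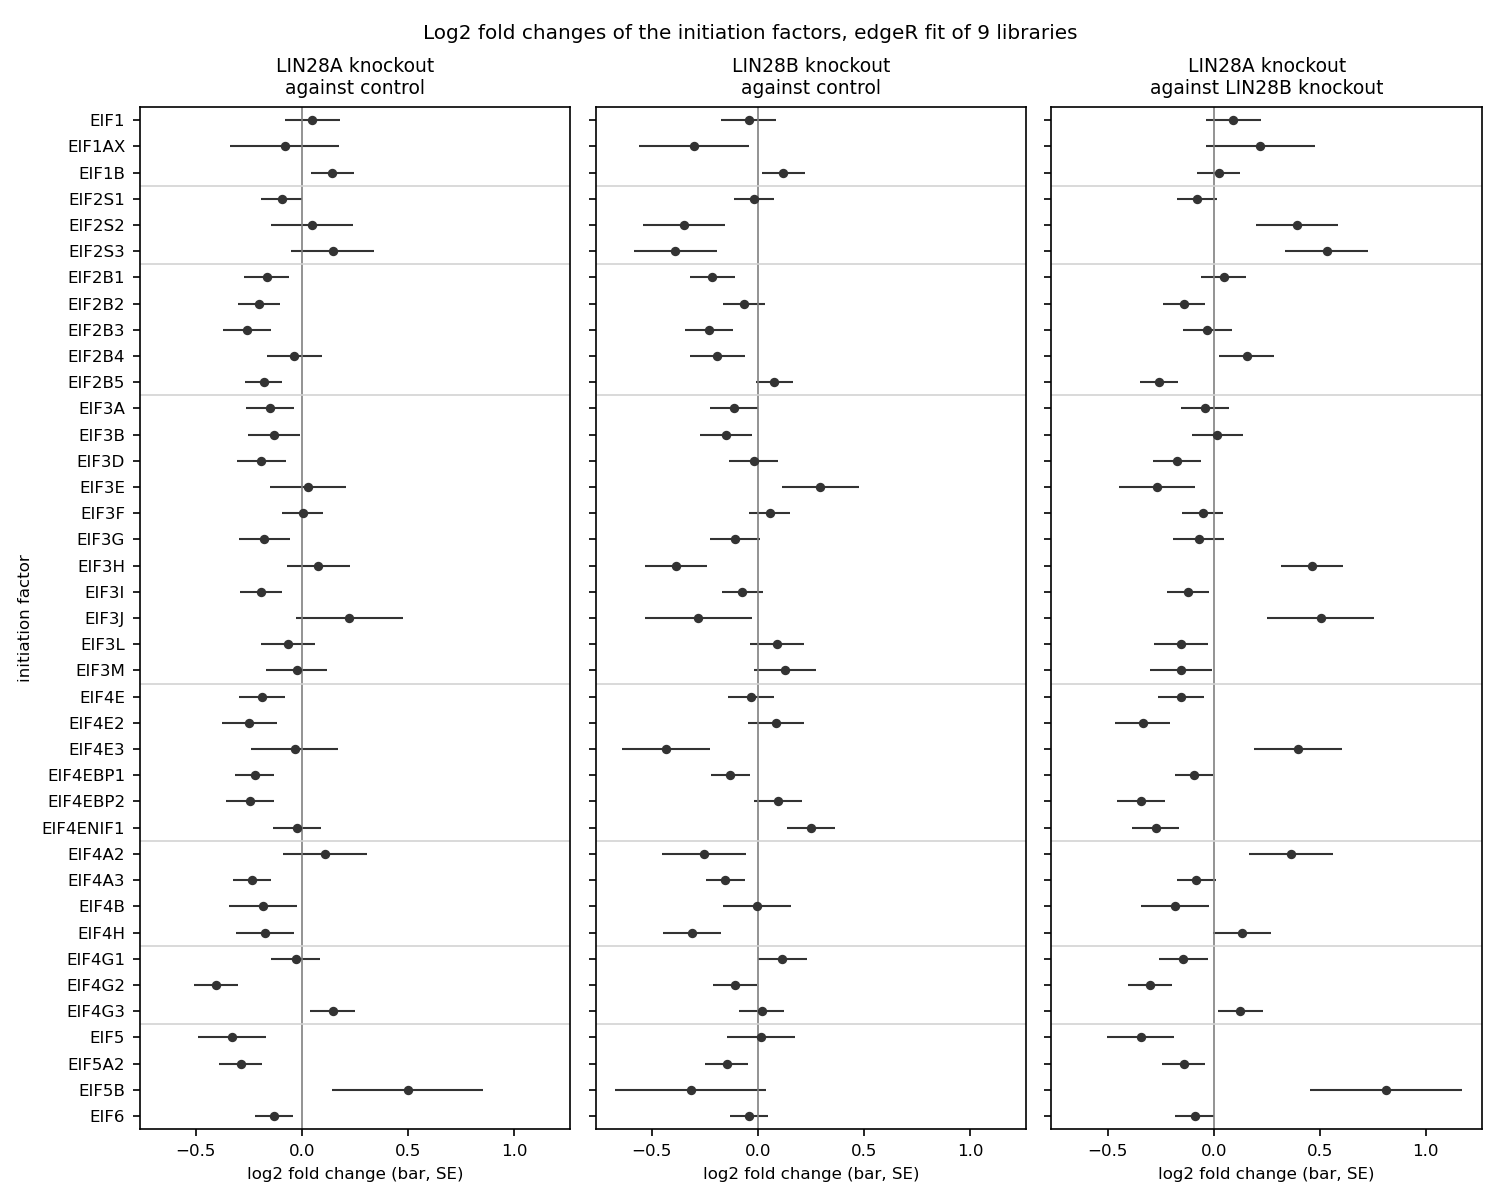
Points are log2 fold changes from the edgeR fit of 9 libraries and bars are their standard errors, for LIN28A knockout against control, LIN28B knockout by label against control, and the knockouts against each other. No factor was called in any panel, and the values run from −0.41 to 0.50 in the first panel, −0.43 to 0.29 in the second and −0.34 to 0.81 in the third.

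Start codon selection rests on EIF1, its close paralogue EIF1B and EIF1AX, which encodes eIF1A. EIF1B was the steadiest of the 3 and stood above control in both knockouts. EIF1B (ENSGALG00000038646) had 47.4, 45.4 and 46.0 CPM in LIN28A knockout, 47.3, 45.2 and 44.1 CPM in libraries labelled LIN28B knockout and 42.1, 41.2 and 42.4 CPM in control. All 6 knockout libraries lay above all 3 control libraries, by a log2 difference of 0.14 ± 0.10 (SE, edgeR adjusted p = 0.664) in LIN28A knockout and 0.12 ± 0.10 (SE, edgeR adjusted p = 0.743) in libraries labelled LIN28B knockout. It was the 1 factor entirely above control in LIN28A knockout. EIF1AX (ENSGALG00000016410) had 138, 144 and 152 CPM in LIN28A knockout, 98.5, 96.0 and 178 CPM in libraries labelled LIN28B knockout and 129, 125 and 205 CPM in control. Replicate 3 was the highest library of each group, and replicates 1 and 2 labelled LIN28B knockout were the lowest of the 9. EIF1AX differed between LIN28A knockout and the libraries labelled LIN28B knockout by 0.22 ± 0.26 (SE, edgeR adjusted p = 0.676). EIF1 averaged 210.2 ± 32.7 CPM in LIN28A knockout, 197 ± 11.6 CPM in libraries labelled LIN28B knockout and 203 ± 18.9 CPM in control (SD, n = 3 each), and the groups overlapped. EIF1 and EIF1B are similar in sequence and may share reads.

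Of the eIF2 subunits, EIF2S2 (beta) and EIF2S3 (gamma, which binds GTP and the initiator tRNA) stood below control in the libraries labelled LIN28B knockout, whereas EIF2S1 (alpha, the subunit phosphorylated in the integrated stress response) lay near control in both. EIF2S3 (ENSGALG00000016340) had 519.8, 527 and 892 CPM in LIN28A knockout, 449.7, 409.6 and 481 CPM in libraries labelled LIN28B knockout and 541, 574 and 639 CPM in control. The 3 lowest of the 9 were those labelled LIN28B knockout, and LIN28A knockout replicate 3 was the highest. The log2 fold change of EIF2S3 in libraries labelled LIN28B knockout against control was −0.39 ± 0.19 (SE, edgeR adjusted p = 0.596). The authors' deposited table gave it −0.39 ± 0.12 (SE) with an adjusted p of 0.0353, the 1 initiation factor under 0.05 there, where 4.60% of the genes with an adjusted p were under 0.05. Over 20 alternative fits here its adjusted p ran from 3.21e-07 to 0.987 and its log2 fold change from −0.45 to −0.32. In LIN28A knockout against control the authors' deposited table had 0 factors under 0.05, where 1.91% of genes were. EIF2S3 in LIN28A knockout exceeded the libraries labelled LIN28B knockout with no overlap, by 0.53 ± 0.20 (SE, edgeR adjusted p = 0.207). LIN28A knockout replicates 1 and 2 lay just below every control library.

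EIF2S2 (ENSGALG00000033196) had 311, 313 and 435 CPM in LIN28A knockout, 241, 221 and 345 CPM in libraries labelled LIN28B knockout and 318, 317 and 390.0 CPM in control. As for EIF2S3, replicates 1 and 2 labelled LIN28B knockout were the lowest libraries, but replicate 3 labelled LIN28B knockout lay within control. The log2 fold change of EIF2S2 was −0.35 ± 0.19 (SE, edgeR adjusted p = 0.624) in libraries labelled LIN28B knockout against control and 0.39 ± 0.19 (SE, edgeR adjusted p = 0.312) in LIN28A knockout against them. EIF2S1 (ENSGALG00000009565) had 196, 209 and 205 CPM in LIN28A knockout, 207, 203 and 234 CPM in libraries labelled LIN28B knockout and 205, 222 and 225 CPM in control. These overlapped in every comparison, and the difference of LIN28A knockout from control was −0.10 ± 0.10 (SE, edgeR adjusted p = 0.768), below control in all 3 same-numbered pairs.

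All 5 subunits of eIF2B had a fitted value below control in LIN28A knockout, from −0.26 to −0.04 on the log2 scale, though EIF2B4 lay above it without control replicate 2 or LIN28A knockout replicate 1, at up to 0.04. EIF2B2, EIF2B3 and EIF2B5 lay below control with no overlap, as did 9.78% of all genes and 14.2% of abundant genes. Of these 5, 4 were below control in libraries labelled LIN28B knockout, with EIF2B1 and EIF2B3 not overlapping it (11.4% of all genes and 13.5% of abundant genes). EIF2B5 lay above control there with no overlap (11.6% and 10.7%). EIF2B3 (ENSGALG00000010140), the gamma subunit and partner of the catalytic one, had 39.4, 37.7 and 41.5 CPM in LIN28A knockout, 37.8, 39.6 and 43.7 CPM in libraries labelled LIN28B knockout and 48.9, 44.3 and 48.8 CPM in control. Control was the highest group, and the knockouts overlapped each other. The log2 fold change of EIF2B3 was −0.26 ± 0.11 (SE, edgeR adjusted p = 0.455) in LIN28A knockout and −0.23 ± 0.11 (SE, edgeR adjusted p = 0.595) in libraries labelled LIN28B knockout.

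EIF2B5 (ENSGALG00000008376), the catalytic epsilon subunit, had 111, 105 and 107 CPM in LIN28A knockout, 134, 127 and 126 CPM in libraries labelled LIN28B knockout and 125, 121 and 121 CPM in control. The groups were ordered without overlap, with LIN28A knockout lowest and the libraries labelled LIN28B knockout highest. EIF2B5 differed from control by −0.18 ± 0.09 (SE, edgeR adjusted p = 0.514) in LIN28A knockout and by 0.08 ± 0.09 (SE, edgeR adjusted p = 0.809) in libraries labelled LIN28B knockout. The difference between the knockouts was −0.26 ± 0.09 (SE, edgeR adjusted p = 0.182). EIF2B1 (ENSGALG00000003259), the regulatory alpha subunit, had 53.9, 48.1 and 49.3 CPM in LIN28A knockout, 47.4, 48.6 and 50.2 CPM in libraries labelled LIN28B knockout and 56.0, 53.5 and 60.3 CPM in control. The libraries labelled LIN28B knockout lay below all control libraries, by −0.21 ± 0.11 (SE, edgeR adjusted p = 0.595), while LIN28A knockout replicate 1 reached into the control range. EIF2B2, the beta subunit, averaged 88.5 ± 0.914 CPM in LIN28A knockout, 97.5 ± 6.89 CPM in libraries labelled LIN28B knockout and 102 ± 5.86 CPM in control (SD, n = 3 each). EIF2B4, the delta subunit, averaged 55.5 ± 6.23 CPM in LIN28A knockout, 49.8 ± 5.28 CPM in libraries labelled LIN28B knockout and 56.9 ± 4.04 CPM in control, and overlapped in every comparison.

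The 11 eIF3 subunits found did not move as one. In LIN28A knockout 7 of 11 lay below control and 4 above, with a median log2 fold change of −0.07. The 4 above, EIF3E, EIF3F, EIF3H and EIF3J, each lay below control when a single library was left out, which for EIF3E, EIF3H and EIF3J was LIN28A knockout replicate 3 (for EIF3H also control replicate 1). Of those below, EIF3M lay above control without control replicate 3, LIN28A knockout replicate 1 or LIN28A knockout replicate 2, at up to 0.04. In libraries labelled LIN28B knockout the split was also 7 and 4, with a median of −0.07. EIF3D, among those below, changed sign there with upper-quartile scaling and without replicate 3 of control or of the LIN28B label. Only EIF3D, which can itself bind the cap of some mRNAs in human cells, had groups that did not overlap against control, in LIN28A knockout. That was 9.09% of the 11 subunits, against 9.78% of all genes and 14.2% of abundant genes that lay entirely below control. In libraries labelled LIN28B knockout 11.4% of all genes lay entirely below control and 11.6% entirely above. EIF3D (ENSGALG00000012529) had 211, 209.9 and 246 CPM in LIN28A knockout, 266, 270.0 and 217 CPM in libraries labelled LIN28B knockout and 249, 247 and 267 CPM in control. LIN28A knockout replicate 3 lay just under the lowest control library, and the difference was −0.19 ± 0.12 (SE, edgeR adjusted p = 0.607). EIF3I (ENSGALG00000003337), a small subunit bound to EIF3B and EIF3G, had the smallest p of the complex in LIN28A knockout and had 177, 184 and 201 CPM in LIN28A knockout, 206, 214 and 191 CPM in libraries labelled LIN28B knockout and 199.9, 219 and 223 CPM in control. LIN28A knockout replicate 3 overlapped control replicate 1 by a small margin, and the difference was −0.19 ± 0.10 (SE, edgeR adjusted p = 0.529).

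EIF3H (ENSGALG00000040522), a subunit with an MPN domain, had the largest difference of the complex in libraries labelled LIN28B knockout. EIF3H had 202, 209.8 and 251 CPM in LIN28A knockout, 147, 146 and 188 CPM in libraries labelled LIN28B knockout and 186, 199.6 and 242 CPM in control. Replicates 1 and 2 labelled LIN28B knockout were the lowest of the 9 libraries, and replicate 3 was the highest of each group. Against the same-numbered control library the libraries labelled LIN28B knockout held 79.0%, 73.3% and 77.5% of EIF3H, a log2 difference of −0.38 ± 0.15 (SE, edgeR adjusted p = 0.526). LIN28A knockout exceeded the libraries labelled LIN28B knockout without overlap, by 0.46 ± 0.15 (SE, edgeR adjusted p = 0.16). EIF3J (ENSGALG00000008187), the loosely bound subunit near the mRNA channel, had 131, 127 and 197 CPM in LIN28A knockout, 87.4, 83.3 and 151 CPM in libraries labelled LIN28B knockout and 120.4, 115 and 155 CPM in control. It was lowest in replicates 1 and 2 labelled LIN28B knockout, as EIF3H was, and highest in LIN28A knockout replicate 3. The difference of LIN28A knockout from the libraries labelled LIN28B knockout was 0.50 ± 0.25 (SE, edgeR adjusted p = 0.321).

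EIF3E, a subunit with a PCI domain, had 216, 223 and 293 CPM in LIN28A knockout, 314, 351 and 215 CPM in libraries labelled LIN28B knockout and 239, 247 and 232 CPM in control. Replicates 1 and 2 labelled LIN28B knockout were the highest libraries and replicate 3 with that label was the lowest of the 9, so the fitted log2 difference of 0.29 ± 0.18 (SE, edgeR adjusted p = 0.651) averaged opposite differences. The same order, with replicates 1 and 2 above replicate 3 among libraries labelled LIN28B knockout and below replicate 3 in LIN28A knockout, held for 6 of 11 eIF3 subunits, which were EIF3D, EIF3E, EIF3G, EIF3I, EIF3L and EIF3M. This pattern was picked after the values were seen. It held for 8 of all 39 factors (20.5%), with EIF2B4 and EIF4B the other two, for 18.7% of all genes tested and for 58 of 67 ribosomal protein genes (86.6%). The median ribosomal protein gene lay −0.15, −0.16 and 0.10 from the control mean on the log2 scale in LIN28A knockout, 0.13, 0.17 and −0.29 in libraries labelled LIN28B knockout, and −0.02, 0.06 and −0.03 in control. EIF3A, EIF3B, EIF3H and EIF3J instead had replicates 1 and 2 below replicate 3 in the libraries labelled LIN28B knockout.

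**Figure D3:**
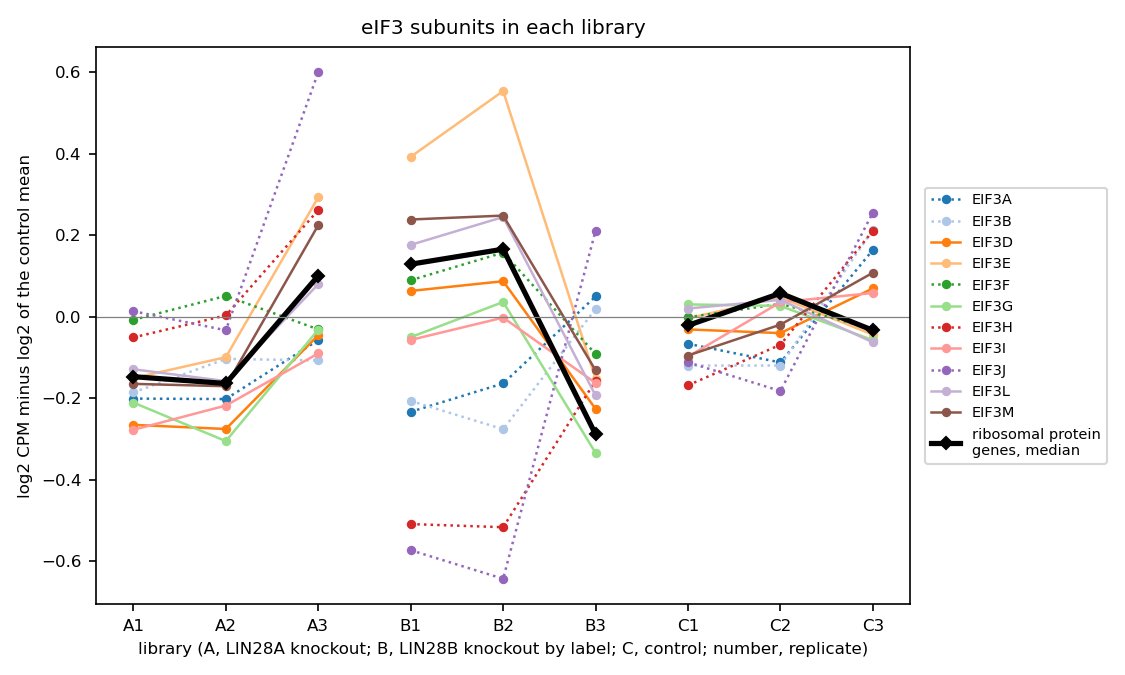
Each line joins the 3 libraries of a group for 1 eIF3 subunit, as log2 CPM minus log2 of the control mean, and the black line is the median of 67 ribosomal protein genes. Solid lines mark the 6 subunits that lie higher in replicates 1 and 2 than in replicate 3 for LIN28B knockout by label and lower for LIN28A knockout, as the black line does; EIF3H and EIF3J run the other way in LIN28B knockout by label.

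EIF3A and EIF3B are the large subunits around which the complex is built. EIF3A averaged 750.1 ± 44.0 CPM in LIN28A knockout, 772 ± 80.6 CPM in libraries labelled LIN28B knockout and 834 ± 87.7 CPM in control (SD, n = 3 each), with overlap. EIF3B averaged 424 ± 13.5 CPM in LIN28A knockout, 418 ± 45.8 CPM in libraries labelled LIN28B knockout and 464 ± 64.2 CPM in control. Both had their highest value in control replicate 3. EIF3F, the closest to control of the complex in LIN28A knockout, averaged 151 ± 4.47 CPM in LIN28A knockout, 157 ± 13.7 CPM in libraries labelled LIN28B knockout and 151 ± 3.24 CPM in control. EIF3G, EIF3L and EIF3M stood at 88.4%, 95.6% and 98.3% of the control mean in LIN28A knockout and at 92.8%, 106% and 109% in libraries labelled LIN28B knockout, and their groups overlapped.

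The cap-binding proteins and the proteins that bind eIF4E all had fitted values below control in LIN28A knockout, 6 of 6, with a median log2 fold change of −0.21, but EIF4E3 and EIF4ENIF1 changed sign when single libraries were left out. In libraries labelled LIN28B knockout 3 were below and 3 above, and 5 of 6 were lower in LIN28A knockout than in libraries labelled LIN28B knockout. EIF4EBP1 (ENSGALG00000003205), which keeps eIF4E from eIF4G until mTOR phosphorylates it, had 138, 125 and 128 CPM in LIN28A knockout, 143, 136 and 137 CPM in libraries labelled LIN28B knockout and 149, 147 and 159.7 CPM in control. Control was the highest group without overlap, and the difference was −0.22 ± 0.09 (SE, edgeR adjusted p = 0.424) in LIN28A knockout and −0.13 ± 0.09 (SE, edgeR adjusted p = 0.701) in libraries labelled LIN28B knockout. EIF4EBP2 (ENSGALG00000037904), its paralogue, had 142, 130.4 and 124 CPM in LIN28A knockout, 179.9, 178 and 145 CPM in libraries labelled LIN28B knockout and 155, 164 and 151 CPM in control. LIN28A knockout lay below both other groups, by −0.25 ± 0.11 (SE, edgeR adjusted p = 0.481) against control and −0.34 ± 0.11 (SE, edgeR adjusted p = 0.174) against the libraries labelled LIN28B knockout.

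EIF4ENIF1 (ENSGALG00000006898) encodes 4E-T, which carries eIF4E into the nucleus and represses bound mRNAs. It had 115, 112 and 105 CPM in LIN28A knockout, 133, 149 and 119.6 CPM in libraries labelled LIN28B knockout and 114, 104 and 119 CPM in control. The libraries labelled LIN28B knockout lay above all other libraries, replicate 3 by the least, with a difference of 0.25 ± 0.11 (SE, edgeR adjusted p = 0.564) from control. LIN28A knockout differed from the libraries labelled LIN28B knockout by −0.27 ± 0.11 (SE, edgeR adjusted p = 0.246). EIF4E2 (ENSGALG00000007919), a cap-binding protein that represses translation, had 50.3, 46.4 and 38.8 CPM in LIN28A knockout, 55.4, 51.9 and 63.5 CPM in libraries labelled LIN28B knockout and 52.7, 54.4 and 53.8 CPM in control. LIN28A knockout lay below both other groups without overlap, and replicate 3 was its lowest library. Its difference was −0.25 ± 0.13 (SE, edgeR adjusted p = 0.545) against control and −0.33 ± 0.13 (SE, edgeR adjusted p = 0.228) against the libraries labelled LIN28B knockout.

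EIF4E (ENSGALG00000042112), the main cap-binding protein, had 159, 179 and 199 CPM in LIN28A knockout, 191, 203 and 206 CPM in libraries labelled LIN28B knockout and 197, 197 and 219.9 CPM in control. LIN28A knockout was at 81.1%, 91.1% and 90.7% of the same-numbered control library, though replicate 3 overlapped control, and the difference was −0.19 ± 0.11 (SE, edgeR adjusted p = 0.587). EIF4E3 (ENSGALG00000007780), a divergent member of the family, had 39.5, 41.8 and 63.9 CPM in LIN28A knockout, 32.5, 34.9 and 42.6 CPM in libraries labelled LIN28B knockout and 45.4, 44.4 and 58.8 CPM in control. The libraries labelled LIN28B knockout were below all control libraries by −0.43 ± 0.21 (SE, edgeR adjusted p = 0.589), the most negative value of any factor in that comparison, and LIN28A knockout replicate 3 was the highest library.

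Among the helicases and their cofactors, EIF4A3 and EIF4H had the smallest p against control. EIF4A3 (ENSGALG00000008530), the helicase of the exon junction complex, had 250.1, 243 and 267 CPM in LIN28A knockout, 273, 257 and 275 CPM in libraries labelled LIN28B knockout and 288, 291 and 315 CPM in control. Both knockouts lay below all control libraries, by −0.23 ± 0.09 (SE, edgeR adjusted p = 0.396) in LIN28A knockout and −0.15 ± 0.09 (SE, edgeR adjusted p = 0.641) in libraries labelled LIN28B knockout. EIF4H (ENSGALG00000001313), a cofactor of eIF4A, had 395, 389.6 and 423 CPM in LIN28A knockout, 351, 322 and 426 CPM in libraries labelled LIN28B knockout and 423, 408 and 534 CPM in control. Replicates 1 and 2 labelled LIN28B knockout were the lowest libraries, replicate 3 overlapped control, and the difference was −0.31 ± 0.14 (SE, edgeR adjusted p = 0.56).

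EIF4A2 (ENSGALG00000008684), a helicase of the cap-bound complex, had 685, 689 and 806 CPM in LIN28A knockout, 478, 446 and 768 CPM in libraries labelled LIN28B knockout and 610.0, 627 and 782 CPM in control. Replicates 1 and 2 labelled LIN28B knockout were the lowest of the 9 libraries. The same held for EIF1AX, EIF2S2, EIF2S3, EIF3B, EIF3H, EIF3J, EIF4E3, EIF4H and EIF5B. The share of all genes with this order was not counted. LIN28A knockout differed from the libraries labelled LIN28B knockout by 0.37 ± 0.20 (SE, edgeR adjusted p = 0.354). EIF4B, the other cofactor, had 389.9, 350.4 and 413 CPM in LIN28A knockout, 458, 522 and 327 CPM in libraries labelled LIN28B knockout and 445, 466 and 399 CPM in control. Its highest and lowest libraries, replicates 2 and 3, both carried the LIN28B knockout label, and the fitted difference from control there was −0.003 ± 0.16 on the log2 scale.

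Of the eIF4G scaffolds, EIF4G2 had the smallest p of any initiation factor against control. EIF4G2 (ENSGALG00000005587), also called DAP5 or NAT1, lacks the part that binds eIF4E and is known in mouse embryonic stem cells as a factor needed for differentiation. It had 1544, 1618 and 1420.1 CPM in LIN28A knockout, 1821, 1787 and 2031 CPM in libraries labelled LIN28B knockout and 1911, 1904 and 2257 CPM in control. LIN28A knockout was the lowest group with no overlap, at 80.8%, 85.0% and 62.9% of the same-numbered control library. The log2 fold change was −0.41 ± 0.10 (SE, edgeR adjusted p = 0.214), with an unadjusted p of 0.00319, and DESeq2 gave an adjusted p of 0.0815. Over 20 alternative fits the adjusted p of EIF4G2 in this comparison ran from 1.43e-06 to 0.555 and the log2 fold change from −0.45 to −0.27. The libraries labelled LIN28B knockout overlapped control, at −0.11 ± 0.10 (SE, edgeR adjusted p = 0.779), and LIN28A knockout lay below them by −0.30 ± 0.10 (SE, edgeR adjusted p = 0.191). EIF4G1, the main scaffold, had 489, 467 and 378 CPM in LIN28A knockout, 473, 462 and 538 CPM in libraries labelled LIN28B knockout and 449, 447 and 465 CPM in control. LIN28A knockout replicate 3 was the lowest library and replicate 3 labelled LIN28B knockout the highest. EIF4G3, its paralogue, averaged 181 ± 5.46 CPM in LIN28A knockout, 166 ± 9.25 CPM in libraries labelled LIN28B knockout and 164 ± 18.8 CPM in control (SD, n = 3 each).

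The last group holds factors of GTP hydrolysis, subunit joining and elongation. EIF5A2 (ENSGALG00000009309) encodes an eIF5A protein, which carries the modified residue hypusine and helps the ribosome through difficult peptide bonds. EIF5A2 had 1048, 1076 and 1024 CPM in LIN28A knockout, 1117, 1127 and 1229 CPM in libraries labelled LIN28B knockout and 1233, 1171 and 1444 CPM in control. LIN28A knockout lay below every other library, by −0.29 ± 0.10 (SE, edgeR adjusted p = 0.342) against control. Libraries labelled LIN28B knockout overlapped control, at −0.15 ± 0.10 (SE, edgeR adjusted p = 0.694). EIF5 (ENSGALG00000011464), which triggers GTP hydrolysis on eIF2, had 527, 533 and 338 CPM in LIN28A knockout, 577, 593 and 605 CPM in libraries labelled LIN28B knockout and 588, 624 and 546 CPM in control. LIN28A knockout replicate 3 was far below the other 8 libraries, and replicates 1 and 2 lay just under the lowest control library. LIN28A knockout held 89.6%, 85.4% and 61.9% of the same-numbered control, a difference of −0.33 ± 0.16 (SE, edgeR adjusted p = 0.51). Without LIN28A knockout replicate 3 the log2 value of EIF5 was −0.14.

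EIF5B (ENSGALG00000016764), the GTPase of subunit joining, had 292, 295 and 772 CPM in LIN28A knockout, 223, 215 and 334 CPM in libraries labelled LIN28B knockout and 291, 283 and 388 CPM in control. LIN28A knockout replicate 3 stood far above the other 8 libraries, while its replicates 1 and 2 lay within the control range. The difference from control was 0.50 ± 0.36 (SE, edgeR adjusted p = 0.668) in LIN28A knockout, and without replicate 3 of that group it was −0.13. It was 0.81 ± 0.36 (SE, edgeR adjusted p = 0.272) in LIN28A knockout against the libraries labelled LIN28B knockout. EIF5 and EIF5B were thus the farthest below and above the control mean of all factors in LIN28A knockout replicate 3. In that library LIN28A stood at 7.28% of the same-numbered control. The library also lay far from replicates 1 and 2 over all factors, and a link to the LIN28A level was not tested. EIF6, which keeps free large subunits apart from small ones, had 189, 201 and 220.3 CPM in LIN28A knockout, 215, 217 and 218 CPM in libraries labelled LIN28B knockout and 222, 226 and 222 CPM in control. Both knockouts lay below all control libraries. The log2 difference was −0.13 ± 0.09 (SE, edgeR adjusted p = 0.646) in LIN28A knockout and −0.04 ± 0.09 (SE, edgeR adjusted p = 0.904) in libraries labelled LIN28B knockout. The margin was narrow, at 220.33 CPM in LIN28A knockout replicate 3 against 221.84 CPM in control replicate 1.

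**Figure D4:**
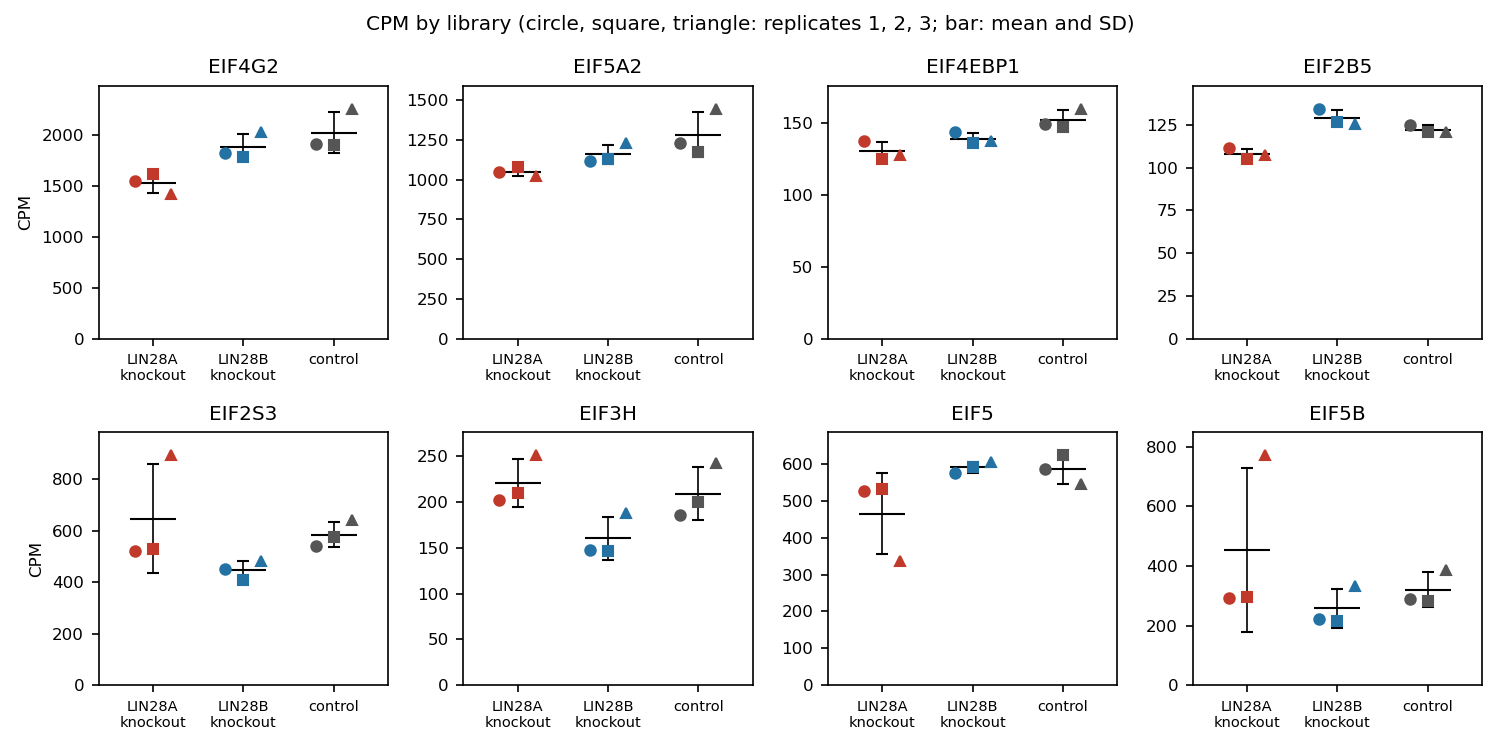
Points are the CPM of single libraries, with replicates 1, 2 and 3 as circle, square and triangle, and bars give the mean and SD of 3 libraries in LIN28A knockout, LIN28B knockout by label and control. EIF4G2, EIF5A2, EIF4EBP1 and EIF2B5 are lowest in LIN28A knockout with no overlap with control, while EIF2S3, EIF5 and EIF5B hold a LIN28A knockout replicate 3 that stands apart.

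Direction by replicate number was also counted, since same-numbered libraries of a knockout and control deviated together. Replicates 1 and 2 were not told apart in this, so their numbers do not establish separate pairs. In LIN28A knockout 18 of 39 factors were below the same-numbered control library in all 3 pairs (46.2%, against 19.3% of all genes tested) and 5 were above (12.8%, against 19.0%). The 18 included 4 of 5 eIF2B subunits, 4 of 6 cap-binding and 4E-binding proteins and 3 of 11 eIF3 subunits. In libraries labelled LIN28B knockout 19 were below (48.7%, against 25.4%) and 4 above (10.3%, against 23.7%). These 19 included EIF2S2 and EIF2S3, 3 of 5 eIF2B subunits, 4 of 11 eIF3 subunits and EIF4A2, EIF4A3 and EIF4H. The share of abundant genes was not counted for this measure. Abundant genes lay below 0 more often than all genes, at 53.0% against 47.3% in LIN28A knockout and 57.8% against 50.2% in libraries labelled LIN28B knockout. How far the factors differ from other abundant genes here is therefore not known. The knockouts share their control libraries.

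The calls depended on whether replicate 3 was kept and on the use of a replicate block. With replicates 1 and 2 of every group only, edgeR called 20 factors in LIN28A knockout relative to control, of which 17 were lower and 3 higher (51.3%, against 30.1% of all genes and 43.2% of abundant genes). It called 19 in libraries labelled LIN28B knockout, 5 higher and 14 lower (48.7%, against 31.2% and 45.2%). Between the knockouts it called 24, with 10 higher and 14 lower in LIN28A knockout (61.5%, against 39.5% and 54.0%). In each comparison the share of the factors was closer to that of abundant genes than to that of all genes. These shares pool both directions, and calls of all genes were not split into higher and lower for this fit. The 17 lower in LIN28A knockout included EIF4G2, EIF5A2, EIF4EBP1, EIF4EBP2, EIF4A3, EIF2B3, EIF2B5 and 6 eIF3 subunits. The 14 lower in libraries labelled LIN28B knockout included EIF2S2, EIF2S3, EIF3H, EIF3J, EIF4A2, EIF4H and EIF5B, and EIF3E, EIF3L, EIF3M, EIF4EBP2 and EIF4ENIF1 were higher. Replicates 1 and 2 lay so close together that this fit measures a small spread, and the labels do not say whether they are separate cultures.

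A further fit used the replicate number as a block on only the libraries labelled LIN28B knockout and control, a setting chosen after the data were seen. In that fit 7 factors were called, all lower (7.65% of all genes and 10.7% of abundant genes were called, in either direction). They were EIF1AX, EIF2S2, EIF2S3, EIF3H, EIF4E3, EIF4H and EIF5B, with edgeR adjusted p from 0.0189 for EIF3H to 0.0438 for EIF2S2. Over the 20 alternative fits the adjusted p of EIF3H ran from 8.25e-07 to 0.987 and that of EIF2S2 from 1.89e-08 to 0.987, the lowest without replicate 3. With the block and without LIN28A knockout replicate 3, also chosen after the data were seen, 3 factors were called in LIN28A knockout against control (11.8% of all genes and 16.3% of abundant genes), 9 in libraries labelled LIN28B knockout against control (16.3% and 23.1%) and 13 between the knockouts (20% and 27.4%). With the block on replicates 1 and 2 the counts were 18 (29.3% and 42.0%), 16 (30.3% and 44.1%) and 24 (38.9% and 53.1%). The block in all 9 libraries called 0 factors in either knockout against control, with the smallest edgeR adjusted p of 0.0905 for EIF3H in libraries labelled LIN28B knockout.

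Genes of translation outside the rule gave no calls. Of 40 listed, 34 were tested, among them the eIF2 kinases, the poly(A)-binding proteins, elongation factors and DOHH, an enzyme of hypusine synthesis. PPP1R15A, PAIP2, ABCF1, EEF1G, GSPT1 and DHPS were not tested. None of the 34 was called in any comparison by edgeR with or without the replicate block or by DESeq2. At an unadjusted p under 0.05 there were 1 lower and 0 higher of these 34 in LIN28A knockout relative to control (10.6% of all genes tested), 2 lower and 0 higher in libraries labelled LIN28B knockout (8.87%), and 4 higher and 3 lower between the knockouts (18.0%). Their median log2 fold change was −0.07 in LIN28A knockout, −0.01 in libraries labelled LIN28B knockout and −0.09 between the knockouts. The median of all genes tested was 0.02, −0.00113 and 0.0039, in the same order. For abundant genes it was −0.0152, −0.039 and 0.00513, though not all of the 34 are abundant.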

How the data were processed

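The deposited files give whole-number read counts by Ensembl identifier, separately for each library. The submitters' processing notes list edgeR 3.38.4, DESeq2 1.36.0, featureCounts 2.0.3 and HISAT2 2.1.0, with GRCg6a and galGal6 as builds, and assign no step to any of them. Libraries were made with a directional NEBNext Ultra kit, per the labels' protocols. The log2 fold changes, their standard errors and the adjusted p-values in the authors' deposited tables compare each knockout with control, per the file headers. Strand setting and annotation release were not given in the sources used here. Reads of overlapping genes and of paralogues may be shared or lost.

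Symbols came from the deposited tables, which name 13354 of 24356 identifiers. EIF3C, EIF3K, EIF4A1 and EIF5A had no match by symbol and are not analysed here. Of all genes 15475 passed filterByExpr and were tested in edgeR 4.0.16 (R 4.3.3; TMM, quasi-likelihood F test on group over 9 libraries, two-sided, Benjamini-Hochberg over all genes tested). The common biological coefficient of variation was 0.265. With 3 libraries a group, the precision of each value also rests on the spread of that gene. In LIN28A knockout against control the standard errors of the factors ran from 0.088 to 0.36 log2 units. DESeq2 1.42.0 was an alternative. CPM is not scaled to gene length, so levels are not compared between genes. In the labels, the description of each LIN28B-labelled library refers to the LIN28A comparison.

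The meaning of the replicate numbers is not given in the labels. They were taken to pair each knockout with control, since over 10151 genes the correlation of deviations from the group mean between same-numbered libraries was 0.403, 0.258 and 0.391 for LIN28A knockout with control and 0.394, 0.427 and 0.555 for LIN28B knockout by label with control. Replicates 1 and 2 were not told apart by this check. Their differently numbered pairs gave 0.334 and 0.317 for LIN28A knockout with control and 0.418 and 0.423 for LIN28B knockout by label with control.

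The members and lists were chosen with earlier results of these data known. Values in every library are given for factors called by edgeR, by DESeq2, with the replicate block or in a deposited table and, in each complex, for the factor with the smallest p in each comparison. Other factors shown with the value in every library were chosen after their values were seen.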

Additional observations from a re-analysis of the deposited data

Results flagged for a closer look

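EIF2B5, which encodes the catalytic subunit of eIF2B, differed from control in opposite directions in the knockouts. Every LIN28A knockout library lay below every control library (log2 fold change −0.18 ± 0.088, SE). Every library labelled LIN28B knockout lay above every control library (0.078 ± 0.088, SE). The values were 111, 105 and 107 CPM in LIN28A knockout, 134, 127 and 126 CPM in libraries labelled LIN28B knockout and 125, 121 and 121 CPM in control. Neither difference from control was called, and the difference between the knockouts was −0.26 ± 0.09 (SE, edgeR adjusted p = 0.182). EIF2B5 was picked here because its groups were ordered in this way, so that order is no separate support. The share of all genes with such an order was not counted. The margin was narrow on the upper side, at 125.94 CPM in replicate 3 labelled LIN28B knockout against 125.25 CPM in control replicate 1.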

How the results depend on the processing

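Of the 28 values chosen for the smallest p in their complex, an unadjusted p under 0.05 or a call, none changed sign under any alternative: of 560 alternative values 497 stayed on the same side of the threshold and 63 passed it. The alternatives reuse the libraries from which these values were chosen, so a steady sign was partly set by that choice. No factor was called in the main fit, so the threshold could be crossed only towards a call. Other factors did change sign when single libraries were left out: 14 of 39 in LIN28A knockout against control, 8 in libraries labelled LIN28B knockout against control and 7 between the knockouts. With upper-quartile scaling EIF2S1, EIF3D and EIF4B changed sign in libraries labelled LIN28B knockout against control, and EIF1B and EIF3B between the knockouts. The median log2 fold change of the 39 factors ran from −0.16 to −0.06 in LIN28A knockout against control, from −0.10 to −0.03 in libraries labelled LIN28B knockout against control, and from −0.11 to −0.05 between the knockouts. The cause of the differences between settings was not tested.

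In LIN28A knockout against control, the factors called were 20 with replicates 1 and 2 only. They were 18 with those replicates and a block, and 3 (EIF3G, EIF4A3 and EIF4G2) with a block and without LIN28A knockout replicate 3. Genes called were 333 with DESeq2, 5 with no filter, 0 with only the 2 groups, 13 with the replicate block, 4724 with replicates 1 and 2 only, 1863 with the block without LIN28A knockout replicate 3, 4602 with the block on replicates 1 and 2, and 0 with the block on the 2 groups. Leaving out 1 library gave 0 to 453 genes.

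In libraries labelled LIN28B knockout against control, the factors called were 19 with replicates 1 and 2 only, 16 with a block on them, 9 with the block without LIN28A knockout replicate 3, 7 with the block on the 2 groups and 1 in the authors' deposited table. Genes called were 118 with DESeq2, 1 with only the 2 groups, 24 with the replicate block, 4898 with replicates 1 and 2 only, 2579 with the block without LIN28A knockout replicate 3, 4750 with the block on replicates 1 and 2, and 1151 with the block on the 2 groups. Leaving out 1 library gave 0 to 166 genes.

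Between the knockouts, deviations of same-numbered libraries correlated only weakly (0.13, 0.0873 and 0.124). Replicate 3 of either knockout with replicates 1 and 2 of the other gave −0.148 to −0.0894. Replicate 1 with replicate 2 gave 0.127 and 0.0647. The replicate block called 3 factors, EIF2S2, EIF3H and EIF3J, all higher in LIN28A knockout, and 890 genes (5.75%). The factors called were 24 with replicates 1 and 2 only, 24 with a block on them and 13 with the block without LIN28A knockout replicate 3. Genes called were 951 with DESeq2, 136 with no filter, 9 with only the 2 groups, 6196 with replicates 1 and 2 only, 3157 with the block without LIN28A knockout replicate 3, 6098 with the block on replicates 1 and 2, and 0 with the block on the 2 groups. Leaving out 1 library gave 0 to 474 genes. In no comparison did leaving out 1 library without a block call a factor. The fits with a block on fewer libraries were chosen after the data were seen.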
